A study of Mus musculus with 6 samples.

Results

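The genes described here are 46 mouse genes of amino acid supply and of the stress response led by the transcription factor ATF4, followed across 3 melanoma cell lines. They were given by a list of gene symbols, and all 46 symbols were present among the 23951 genes of the expression table. The list was selected on the rise of Trib3 and Nupr1 in the line B16-F1R2L, so values of B16-F1R2L are described without a test. That rise is relative to the other lines, so Trib3 and Nupr1 are described without a p-value in every comparison. For the remaining genes B16-F1R2 was tested against B16-F1, but the list was drawn up with earlier results of these data known, so the calls are not independent of that choice. The 46 genes fall into 5 groups, namely 12 aminoacyl-tRNA synthetases, 11 synthesis enzymes, 8 transporters, 7 transcription factors and 8 other stress-induced genes.

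B16-F1 is a mouse melanoma line of low metastatic potential, B16-F1R2 was established from a lymph node metastasis, and B16-F1R2L came from a lung metastasis that itself descended from a lymph node metastasis. Each line was sequenced in 2 libraries with no treatment, and the lines were kept in high glucose DMEM with 10% fetal bovine serum, 2 mM glutamine and gentamicin. By the study's methods the RNA of B16-F1 and B16-F1R2 came from cultured cells. The methods do not name B16-F1R2L, and the labels' extraction note speaks of xenografts beside cells, but the labels give B16-F1R2L the same culture medium and no host animal, so its libraries are taken here as cultured cells too. By the same methods B16-F1 was obtained from a cell repository and B16-F1R2 from a research laboratory, and they give no source for B16-F1R2L. The effect of a line and that of its source therefore cannot be told apart. Whether both libraries of a line are separate cultures is not in the labels, so the p-values below measure the spread between these libraries only, which may be technical.

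Cells that run short of amino acids, or that accumulate unfolded protein, phosphorylate the translation initiation factor eIF2. General translation then slows while the Atf4 mRNA is translated more. The ATF4 protein, often paired with a C/EBP factor or acting with CHOP (encoded by Ddit3), induces genes for amino acid uptake, for the synthesis of serine, glycine, proline and asparagine and for the charging of tRNAs, together with feedback genes such as Trib3. Because much of the control of ATF4 is translational, the level of its mRNA does not measure its activity.

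ATF4 and C/EBP dimers are known to bind a composite element whose core reads TGATGNAA. This element was searched on both strands in the 250 bases before the start of each gene, in the RefSeq promoters of the build GRCm38.p6. Of the 46 genes, 35 had a promoter there, and 10 of the 35 (28.6%) held at least 1 match. Of all 27025 genes with a promoter there, 1056 (3.91%) held a match. A match describes the letters in this window and is not a measured binding site. The other 25 genes with a promoter, Trib3, Ddit3 and Atf4 among them, held none. The stretch around each match is printed to show the element in the 10 genes that hold it, each in the direction of its gene, with the element in capitals.
Nupr1, chr7:126625553-126625600, minus strand: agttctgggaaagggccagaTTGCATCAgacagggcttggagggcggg
Atf3, chr1:191183416-191183463, minus strand: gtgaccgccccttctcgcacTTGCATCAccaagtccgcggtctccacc
Chac1, chr2:119351029-119351076, plus strand: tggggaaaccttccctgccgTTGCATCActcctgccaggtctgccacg
Slc7a11, chr3:50443643-50443689, minus strand: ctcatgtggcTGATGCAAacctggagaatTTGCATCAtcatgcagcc
Asns, chr6:7693210-7693252, minus strand: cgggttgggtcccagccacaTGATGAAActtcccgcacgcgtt
Pycr1, chr11:120643824-120643871, minus strand: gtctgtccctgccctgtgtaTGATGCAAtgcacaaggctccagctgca
Aars, chr8:111033710-111033757, plus strand: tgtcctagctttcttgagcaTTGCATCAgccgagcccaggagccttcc
Gars, chr6:55037951-55037998, plus strand: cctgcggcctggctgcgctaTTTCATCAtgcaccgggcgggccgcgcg
Tars, chr15:11399659-11399693, minus strand: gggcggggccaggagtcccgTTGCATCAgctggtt
Vldlr, chr19:27216800-27216847, plus strand: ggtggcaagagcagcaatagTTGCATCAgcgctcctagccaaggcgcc

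In Nupr1 and Atf3 the element spans bases 110 to 103 before the start, in Aars bases 112 to 105 and in Pycr1 bases 103 to 96. It lies closer to the start in Gars (30 to 23), Asns (23 to 16) and Tars (15 to 8), and farther away in Chac1 (193 to 186) and Vldlr (200 to 193). Slc7a11 held 2 elements in opposite directions, between bases 66 and 40 before its start, and 0.0481% of all genes with a promoter held 2 or more. The windows of Trib3 and Ddit3 held no TGATGNAA. Cars, Lars, Mars, Nars, Wars, Aldh1l2, Cth, Slc7a5, Slc7a3, Slc1a5 and Eif4ebp1 had no entry in the promoter table.

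Expression is given as FPKM (fragments counted per kilobase of a transcript and per 1000000 mapped reads), a scale that allows levels to be compared between genes. Differences between lines are differences of the mean log2(FPKM + 0.1), which understate the change of genes with very low FPKM, and folds are the same differences off the log scale. Of the 23951 genes, 11379 reached 1 FPKM in at least 2 libraries and were tested with limma, with adjusted p-values over all of them and a threshold of 0.05. The depth estimated from the lowest FPKM values was 12200000 to 14100000 reads per library, and the 2 libraries of a line differed by a median of 0.07 to 0.10 on the log2 scale. All 7 melanocyte lineage markers were expressed in every library. Their summed FPKM was 14970.0 to 15007 in B16-F1, 7909 to 8125 in B16-F1R2 and 8924 to 8933 in B16-F1R2L. Markers of other cell types were low or absent, apart from Cd79a, and those that differed between lines went both ways. Of 7 leukocyte markers, Ptprc, Cd3e and Itgam were listed at 0 in all 6 libraries, as were Cdh5, Kdr and Lyve1 of 5 endothelial markers, Dcn and Lum of 4 fibroblast markers, Sftpc and Scgb1a1 of 5 lung epithelial markers and Krt5 of 2 keratinocyte markers. The summed leukocyte markers read 1.19 to 2.45 FPKM in B16-F1, 14.6 to 15.5 in B16-F1R2 and 20.07 to 20.2 in B16-F1R2L. Most of that sum was the B-cell receptor gene Cd79a, at 12.4 to 17.1 FPKM in B16-F1R2 and B16-F1R2L. The macrophage gene Lyz2 was also called higher in B16-F1R2 (adjusted p = 0.044), with means of 0.398, 1.05 and 1.78 FPKM over the 3 lines. The summed endothelial markers read 1.63 to 1.66 FPKM in B16-F1, 1.55 to 1.72 in B16-F1R2 and 2.25 to 2.38 in B16-F1R2L. Among them Pecam1 was listed at 0 in both B16-F1 libraries, at 0.758 and 0.752 FPKM in B16-F1R2 (adjusted p = 0.00017) and at 1.09 and 1.26 in B16-F1R2L. Prox1, which made up all of the B16-F1 sum, went the other way, with 1.66 and 1.63 FPKM in B16-F1, only 0.790 and 0.969 in B16-F1R2 (log2 difference -0.84, adjusted p = 0.0057) and then 1.16 and 1.12 in B16-F1R2L. No marker of these lists other than Cd79a passed 3 FPKM, and the part of other cells in the results below was not tested.

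Of the 46 genes, 43 passed the filter on low values. Stc2 was listed at 0 in all 6 libraries, Vldlr at 0.186 and 0.318 FPKM in B16-F1 and at 0 in the other lines, and Slc7a3 stayed between 0 and 0.363 FPKM, so these 3 were not tested. At the other end, Atf4, Phgdh, Gars, Psat1, Eif4ebp1, Shmt2 and Aars all lay above 140 FPKM in every library. In B16-F1R2, 20 of the 46 genes were lower than in B16-F1 and 6 were higher, while 17 did not pass the test. These counts include Trib3 as lower and Nupr1 as higher, and over the other 44 genes 19 were lower and 5 higher. Over all tested genes, 27.2% were called lower and 28.2% higher. The median log2 difference over the 46 genes was -0.10, beside 0.00 over all tested genes. These are bulk libraries, in which a lower level in every cell and a smaller number of cells with the transcript cannot be told apart.

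In B16-F1R2L most of the 46 genes read higher than in the other lines. Both B16-F1R2L libraries lay above both B16-F1R2 libraries for 41 genes and below for 0, with overlap for Wars, Phgdh, Slc7a3, Vldlr and Stc2. Over all tested genes 35.9% lay above and 29.2% below. Both B16-F1R2L libraries lay above both B16-F1 libraries for 41 genes and below for Vldlr alone, and Slc7a11, Slc7a3, Slc38a2 and Stc2 overlapped, where 41.7% of all tested genes lay above and 39.1% below. The median log2 difference of the 46 genes was 0.66 against B16-F1R2 and 0.57 against B16-F1, while that of all tested genes was 0.02 in both comparisons. Because the list was chosen by B16-F1R2L values, nothing is read from these counts. Rescaling each library to a common FPKM sum moved the median of all tested genes to 0.13 against B16-F1R2 and to 0.12 against B16-F1, and then 50.7% of tested genes lay above B16-F1R2 and 15.5% below, with 43 of the 46 genes above.

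**Figure D1:**
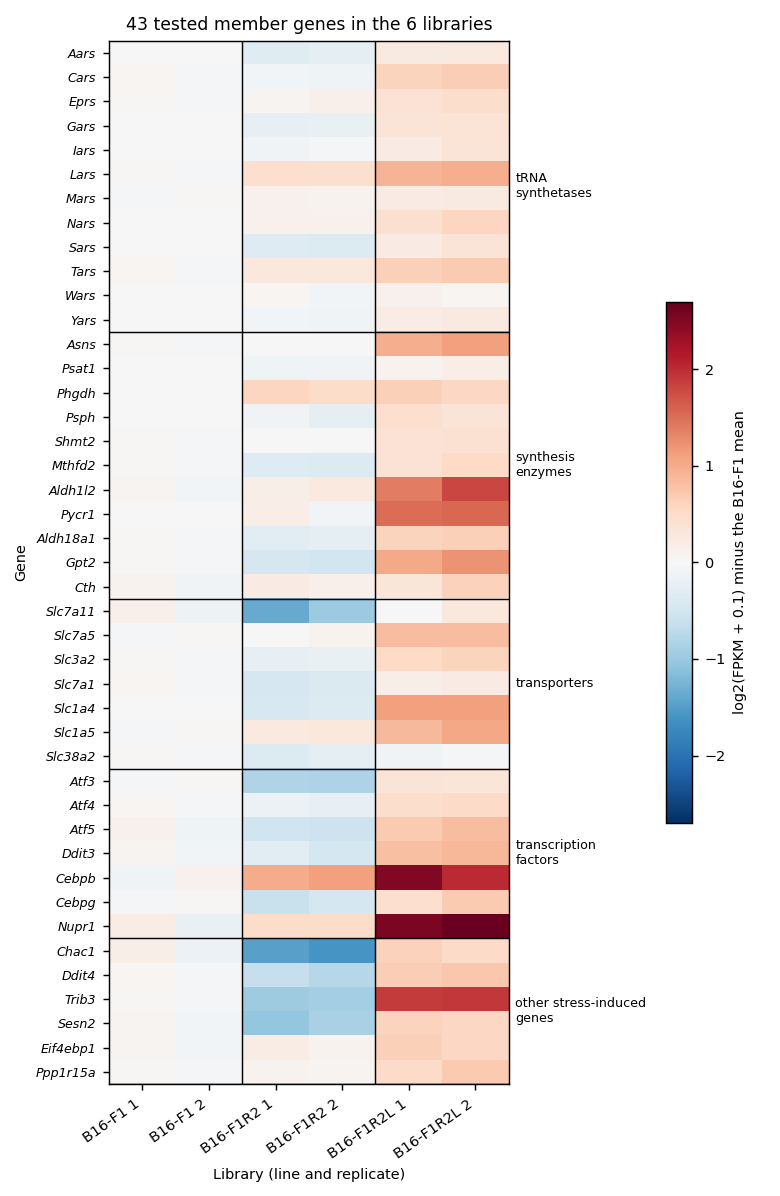
Heat map of the 43 tested genes (rows, grouped by role) in the 6 libraries (columns), with colour giving log2(FPKM + 0.1) minus the mean of the 2 B16-F1 libraries. The B16-F1R2 columns are mostly pale or blue, with Slc7a11 and Chac1 among the darkest blue, and the B16-F1R2L columns are mostly red, darkest for Nupr1, Cebpb and Trib3.

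The order of the lines was most often B16-F1R2L at the top. Both B16-F1R2L libraries exceeded the other 4 libraries for 39 of the 46 genes, beside 20.5% of all tested genes. Both B16-F1R2 libraries lay under the other 4 for 25 of the 46, beside 17.6% of all tested genes. The second count and the distance of B16-F1R2L from B16-F1R2 rest on the same B16-F1R2 libraries, and the values of each comparison are therefore set side by side below rather than combined.

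Of the 7 transcription factors, Nupr1 entered the choice of genes. The other 6 were all called in B16-F1R2, 5 lower than in B16-F1 and 1 higher, beside 27.2% and 28.2% of all tested genes. Atf4, the central activator, measured 305 and 288 FPKM in B16-F1, beside 267 and 256 in B16-F1R2 and 411 and 426 in the B16-F1R2L libraries. It was the most abundant of the 7 in every library. Its fall in B16-F1R2 was small, with a log2 difference of -0.18 ± 0.05 (SE, n = 2 libraries per line, adjusted p = 0.021), and the call was lost without the first B16-F1 library (adjusted p = 0.15), without the second B16-F1R2 library (adjusted p = 0.084) and under quantile normalization (log2 difference -0.11, adjusted p = 0.093). Against B16-F1R2 the B16-F1R2L level was higher by 0.68 on the log2 scale, and the libraries of the 3 lines did not overlap.

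Ddit3, which encodes the pro-apoptotic factor CHOP, measured 48.8 and 44.4 FPKM in the B16-F1 libraries, 37.6 and 33.6 in those of B16-F1R2 and 81.5 and 86.2 in those of B16-F1R2L. Its log2 difference was -0.39 ± 0.07 (SE, adjusted p = 0.0048) in B16-F1R2 against B16-F1 and 1.24 in B16-F1R2L against B16-F1R2. Ddit3 (NCBIM37, chr10:126727830-126733344, plus strand) overlaps the end of the synthetase gene Mars (chr10:126733277-126748842, minus strand), and the libraries kept the strand. The way the counting step used the strand is not given in the sources used here.

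Atf5, an ATF4-related factor induced by the same pathway, read 33.5 and 28.9 FPKM in B16-F1, then 21.5 and 21.1 in B16-F1R2, then 51.2 and 55.8 in B16-F1R2L. The log2 difference was -0.55 ± 0.08 (SE, adjusted p = 0.0017) in B16-F1R2 and 1.32 from B16-F1R2 to B16-F1R2L. Atf3, a stress-induced repressor whose promoter is printed above, read 5.06 and 5.27 FPKM in B16-F1, beside 2.88 and 2.85 in B16-F1R2 and 6.63 and 6.54 in the B16-F1R2L libraries. In Atf3 the 2 libraries of each line were close together, and its log2 difference was -0.83 ± 0.08 (SE, adjusted p = 0.00026) in B16-F1R2. Cebpg, a C/EBP factor without an activation domain that pairs with ATF4, was also lower in B16-F1R2 (log2 difference -0.54, adjusted p = 0.0043), from 9.48 and 9.95 FPKM to 6.38 and 6.91, and stood at 13.2 and 15.9 in B16-F1R2L.

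Cebpb and Nupr1 followed another order, lowest in B16-F1 and highest in B16-F1R2L. Cebpb, a C/EBP factor active in inflammation and differentiation, measured 9.70 and 11.4 FPKM in the B16-F1 libraries, 21.3 and 22.8 in those of B16-F1R2 and 60.2 and 42.9 in those of B16-F1R2L. It rose in B16-F1R2 by a log2 difference of 1.06 ± 0.16 (SE, adjusted p = 0.0019), a fold of 2.08. The B16-F1R2L libraries of Cebpb differed widely from each other, yet the lower of them stood above all 4 others.

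Nupr1, a small stress-induced chromatin protein (NCBIM37, chr7:133766763-133770524, minus strand), measured 13.9 and 10.6 FPKM in B16-F1, then 17.2 and 17.2 in B16-F1R2, then 71.6 and 77.3 in B16-F1R2L. The level in B16-F1R2L, one of the values by which the genes were chosen, was 4.30 times that of B16-F1R2. The B16-F1R2 libraries lay above those of B16-F1 by 0.50 ± 0.12 on the log2 scale (SE), and by 0.31 without the second B16-F1 library. Nupr1 is counted among the 6 higher genes above, and leaving out either B16-F1R2 library removed it from them.

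The 8 other stress-induced genes held the largest tested fall of the list in B16-F1R2, that of Chac1, and the widest gap between B16-F1R2L and B16-F1R2, that of Trib3. Trib3 aside, 5 of the group were tested in B16-F1R2. The test called Chac1, Sesn2 and Ddit4 lower and 0 of the group higher, or 1, Eif4ebp1, under quantile normalization. Among all tested genes 27.2% were lower and 28.2% higher. Trib3, a pseudokinase that feeds back on ATF4 and CHOP (NCBIM37, chr2:152163158-152169768, minus strand), measured 27.0 and 25.9 FPKM in B16-F1, beside 13.6 and 14.0 in B16-F1R2 and 97.4 and 99.1 in the B16-F1R2L libraries. Its libraries were close within each line, and the log2 difference of B16-F1R2 against B16-F1 was -0.94 ± 0.05 (SE). The level in B16-F1R2L, which the choice of genes used, was 7.09 times that of B16-F1R2 and 3.71 times that of B16-F1.

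Chac1, which degrades glutathione, measured 28.4 and 22.9 FPKM in the B16-F1 libraries, 9.12 and 8.34 in those of B16-F1R2 and 39.1 and 36.5 in those of B16-F1R2L. Its log2 difference in B16-F1R2 was -1.54 ± 0.11 (SE, adjusted p = 7.7e-05), a fold of 0.345. The B16-F1R2L level of Chac1 was 4.30 times that of B16-F1R2 and 1.48 times that of B16-F1.

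Sesn2, a leucine sensor upstream of mTORC1, measured 11.9 and 10.8 FPKM in B16-F1, then 5.49 and 6.16 in B16-F1R2, then 17.4 and 16.9 in B16-F1R2L. Its log2 difference in B16-F1R2 was -0.95 ± 0.08 (SE, adjusted p = 0.00017). Ddit4, also named REDD1 and an inhibitor of mTORC1, was lower in B16-F1R2 by a log2 difference of -0.70 ± 0.07 (SE, adjusted p = 0.00036), with 14.4 and 13.4 FPKM in B16-F1, beside 8.93 and 8.10 in B16-F1R2 and 22.02 and 22.96 in the B16-F1R2L libraries. Both genes thus had their lowest libraries in B16-F1R2 and their highest in B16-F1R2L.

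Eif4ebp1, which encodes a repressor of cap-dependent translation, and Ppp1r15a, the GADD34 subunit that directs a phosphatase to eIF2, did not pass the test in B16-F1R2, with log2 differences of 0.15 (adjusted p = 0.094, but 0.046 under quantile normalization and 0.025 with a replicate block) and 0.08 (adjusted p = 0.44). Eif4ebp1 was abundant, at 173 to 207 FPKM in B16-F1 and B16-F1R2 and at 283 and 265 in B16-F1R2L. Ppp1r15a ranged from 9.02 to 9.75 FPKM in the first 4 libraries and measured 13.2 and 15.1 in B16-F1R2L.

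**Figure D2:**
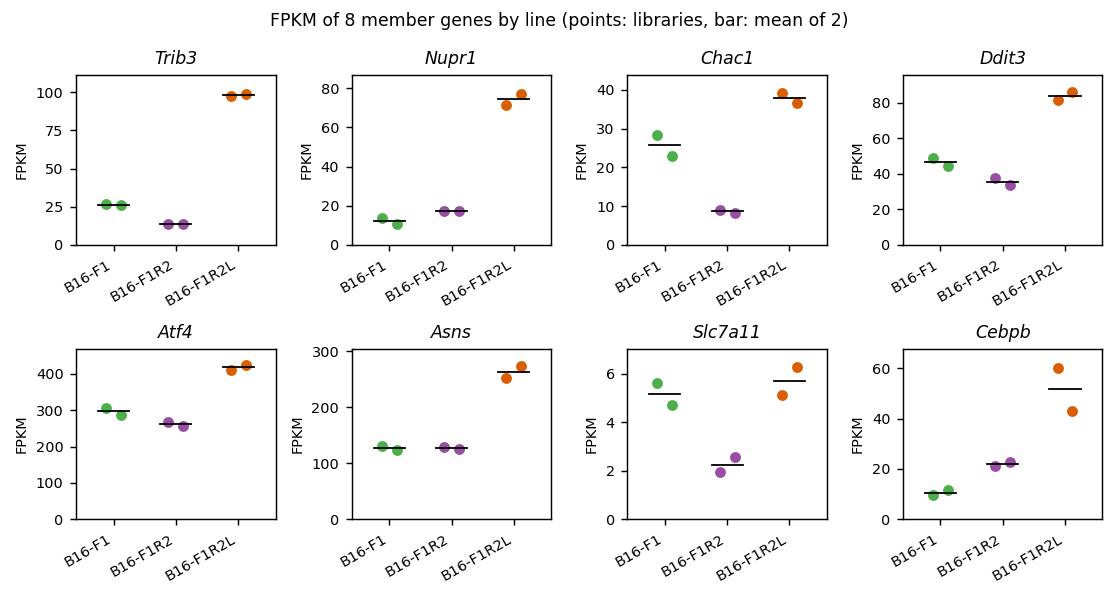
FPKM (vertical axes, from 0, one scale per gene) of 8 genes in the 3 lines, with points for the 2 libraries of a line and bars for their mean. Trib3, Chac1, Ddit3, Atf4 and Slc7a11 have their lowest points in B16-F1R2, the points of Asns in B16-F1 and B16-F1R2 interleave, and those of Nupr1 and Cebpb ascend over the 3 lines.

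Of the 8 transporters, 5 were lower in B16-F1R2, 1 was higher, 1 did not pass the test and Slc7a3 was not tested. The shares over all tested genes were 27.2% lower and 28.2% higher. Slc7a11, the xCT subunit that imports cystine for glutathione synthesis, measured 5.62 and 4.70 FPKM in the B16-F1 libraries, 1.95 and 2.55 in those of B16-F1R2 and 5.11 and 6.29 in those of B16-F1R2L. Its fall in B16-F1R2 was the largest among the transporters, with a log2 difference of -1.17 ± 0.17 (SE, adjusted p = 0.0017). The B16-F1R2L libraries of Slc7a11 lay above those of B16-F1R2 and overlapped those of B16-F1, so that the middle line alone stood apart.

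Slc1a4, a carrier of alanine, serine and cysteine, measured 13.1 and 13.3 FPKM in B16-F1, then 9.81 and 10.1 in B16-F1R2, then 28.6 and 28.7 in B16-F1R2L. It fell in B16-F1R2 by 0.40 on the log2 scale (adjusted p = 0.00089) and had 2.85 times its B16-F1R2 level in B16-F1R2L. Slc7a1, a carrier of arginine and lysine, measured 54.4 and 51.2 FPKM in B16-F1, beside 38.7 and 40.3 in B16-F1R2 and 59.1 and 61.6 in the B16-F1R2L libraries, with a log2 difference of -0.42 ± 0.05 in B16-F1R2 (SE, adjusted p = 0.00076).

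The exchanger for large neutral amino acids joins Slc7a5 (LAT1) with Slc3a2 (CD98). Slc7a5 measured 129 and 135 FPKM in the B16-F1 libraries, 131 and 141 in those of B16-F1R2 and 236 and 235 in those of B16-F1R2L, and the first 2 lines overlapped (log2 difference 0.04, adjusted p = 0.48). Slc3a2 was lower in B16-F1R2 by a log2 difference of -0.21 (adjusted p = 0.0075), a call lost without the first B16-F1 library (adjusted p = 0.063) and under quantile normalization (adjusted p = 0.058), and read 183 and 191 FPKM in B16-F1R2L. From B16-F1R2 to B16-F1R2L the log2 differences of the pair were nearly equal, at 0.79 for Slc7a5 and 0.78 for Slc3a2.

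Slc1a5, a glutamine carrier, was the transporter that rose in B16-F1R2, from 43.2 and 45.2 FPKM to 53.2 and 54.2 (log2 difference 0.28, adjusted p = 0.011), and the call was lost without the first B16-F1 library or the second B16-F1R2 library (adjusted p up to 0.07). In B16-F1R2L it read 81.5 and 91.9 FPKM. Slc38a2, a sodium-coupled carrier of neutral amino acids, was lower in B16-F1R2 (log2 difference -0.32, adjusted p = 0.004) and, at 103 and 108 FPKM in B16-F1R2L, overlapped the 112 and 108 FPKM of B16-F1. The listed values of Slc7a3, a second cationic carrier, were 0.0805 and 0 FPKM in B16-F1, then 0.0383 and 0.333 in B16-F1R2, then 0.363 and 0.0734 in B16-F1R2L, and all 3 lines overlapped.

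Of the 11 synthesis enzymes, 3 were lower in B16-F1R2, 1 was higher and 7 did not pass the test, where 27.2% of all tested genes were lower and 28.2% higher, so the share of lower enzymes was near that of all genes. Asns, asparagine synthetase, measured 130.5 and 124 FPKM in B16-F1, beside 128.5 and 126 in B16-F1R2 and 251 and 274 in the B16-F1R2L libraries. The first 2 lines overlapped, with a log2 difference of 0.00 ± 0.06 (SE, adjusted p = 0.98), and the B16-F1R2L level was 2.06 times that of either. Among the 10 genes with the printed promoter element, 5 were called lower in B16-F1R2 (Atf3, Chac1, Slc7a11, Aars and Gars) and Tars was called higher. Nupr1 read higher, Asns and Pycr1 were not called and Vldlr was not tested. Of the 25 genes with a promoter and no element, 24 were tested, and 15 were called lower and 2 higher, Trib3 counted. Whether the element goes with a fall was not tested.

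Gpt2, the mitochondrial alanine aminotransferase, measured 12.04 and 11.64 FPKM in the B16-F1 libraries, 8.61 and 8.23 in those of B16-F1R2 and 24.1 and 27.6 in those of B16-F1R2L. It fell in B16-F1R2 by a log2 difference of -0.49 ± 0.08 (SE, adjusted p = 0.0024) and had 3.04 times its B16-F1R2 level in B16-F1R2L. Mthfd2, of mitochondrial one-carbon metabolism, measured 129 and 122 FPKM in B16-F1, then 98.5 and 97.8 in B16-F1R2, then 165 and 182 in B16-F1R2L, with a log2 difference of -0.35 ± 0.06 (SE, adjusted p = 0.0028) in B16-F1R2. Aldh18a1, the first step of proline synthesis from glutamate, was also lower in B16-F1R2 (log2 difference -0.28, adjusted p = 0.0034) and read 71.8 and 74.2 FPKM in B16-F1R2L against 38.2 and 39.8 in B16-F1R2.

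A pair of weakly expressed enzymes stood apart in B16-F1R2L. Pycr1, the last step of proline synthesis in mitochondria, measured 0.730 and 0.740 FPKM in B16-F1, beside 0.849 and 0.692 in B16-F1R2 and 2.26 and 2.35 in the B16-F1R2L libraries. Aldh1l2, a mitochondrial formyl-tetrahydrofolate dehydrogenase, measured 4.74 and 4.28 FPKM in the B16-F1 libraries, 5.001 and 5.446 in those of B16-F1R2 and 11.89 and 16.02 in those of B16-F1R2L. In B16-F1R2 neither passed the test (adjusted p = 0.81 for Pycr1 and 0.26 for Aldh1l2). The log2 difference of Pycr1 was 0.05, but under quantile normalization it turned to -1.13 and passed the test (adjusted p = 0.0047), so its direction in B16-F1R2 depends on the scaling.

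Of the serine pathway, Phgdh alone was called in B16-F1R2. Phgdh, the first enzyme, measured 270.5 and 272 FPKM in B16-F1, then 405 and 380 in B16-F1R2, then 421 and 398 in B16-F1R2L. It rose in B16-F1R2 by a log2 difference of 0.53 ± 0.05 (SE, adjusted p = 0.00028), and its libraries in B16-F1R2 and B16-F1R2L overlapped. Phgdh was the only one of the 46 genes with other near-identical copies in the genome, 2 in number, so reads may have been shared with them. The next enzymes, Psat1 (log2 difference -0.11, adjusted p = 0.07) and Psph (-0.18, adjusted p = 0.052, but 0.019 after rescaling to a common sum and 0.032 with a replicate block), did not pass the test in B16-F1R2, nor did the glycine-forming Shmt2 (-0.01, adjusted p = 0.85) or Cth (0.18, adjusted p = 0.25), which makes cysteine from cystathionine. In B16-F1R2L these 4 read above B16-F1R2 without overlap, by log2 differences of 0.24 for Psat1, 0.58 for Psph, 0.40 for Shmt2 and 0.29 for Cth.

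Of the 12 cytosolic tRNA synthetases of the list, which attach amino acids to tRNAs, 3 were lower in B16-F1R2, 2 were higher and 7 did not pass the test, again no larger shares than the 27.2% and 28.2% of all tested genes. Sars, for serine, measured 129 and 127 FPKM in B16-F1, beside 100.4 and 98.8 in B16-F1R2 and 149 and 163 in the B16-F1R2L libraries, with a log2 difference of -0.36 ± 0.05 in B16-F1R2 (SE, adjusted p = 0.0015). Aars, for alanine, read 184 and 180 FPKM, then 145 and 152, then 216 and 219 in the same order of lines, with -0.29 ± 0.04 (SE, adjusted p = 0.0017). Gars, for glycine, read 233 and 227 FPKM, then 196 and 199, then 291 and 298, with -0.22 ± 0.04 (SE, adjusted p = 0.0044). In these 3 genes B16-F1R2 held the lowest pair of libraries and B16-F1R2L the highest.

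Lars, for leucine, and Tars, for threonine, went the other way in B16-F1R2. Lars measured 36.7 and 34.7 FPKM in the B16-F1 libraries, 48.7 and 48.3 in those of B16-F1R2 and 67.0 and 70.2 in those of B16-F1R2L, a rise in B16-F1R2 of 0.44 ± 0.05 on the log2 scale (SE, adjusted p = 0.00048). Tars rose by 0.29 ± 0.05 (SE, adjusted p = 0.0037), from 66.7 and 62.0 FPKM to 78.5 and 78.4, and read 99.8 and 105 in B16-F1R2L. Cars, for cysteine, had the largest difference of the group in B16-F1R2L, at 68.3 and 71.2 FPKM against 42.5 and 41.4 in B16-F1R2, and in B16-F1 it read 46.4 and 43.5 (adjusted p = 0.14).

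The remaining synthetases, Eprs, Iars, Mars, Nars, Wars and Yars, had log2 differences between -0.09 and 0.11 in B16-F1R2 and did not pass the test (adjusted p from 0.078 to 0.99), although under quantile normalization Mars (adjusted p = 0.036) and Nars (adjusted p = 0.049) did, both as higher. Against B16-F1R2, the B16-F1R2L libraries of Nars, Iars, Eprs, Yars and Mars lay above without overlap, by 0.39, 0.35, 0.34, 0.30 and 0.12 on the log2 scale. Wars, for tryptophan, overlapped between those lines, at 77.7 and 74.3 FPKM in B16-F1R2L and 74.5 and 68.3 in B16-F1R2. No synthetase reached a log2 difference of 1 in B16-F1R2L, where the 12 genes ranged from 0.09 to 0.73.

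The size of the differences is described by group, without a test between groups. In B16-F1R2 against B16-F1 the median log2 difference was -0.82 for the 8 other stress-induced genes, -0.39 for the 7 transcription factors, -0.26 for the 8 transporters, -0.01 for the 11 synthesis enzymes and -0.04 for the 12 synthetases, and the last of these turned to 0.02 under quantile normalization. In B16-F1R2L against B16-F1R2 the medians were 0.96, 1.20, 0.74, 0.82 and 0.39 in the same order. The first of these counts Stc2 and Vldlr, listed at 0 in both lines, as no difference, and over the 6 tested genes of the group it was 1.47, above the transcription factors. Without Trib3, on which the list was chosen, the median was 0.54 over the other 7 genes, below the transporters and the synthesis enzymes. That value again counts Stc2 and Vldlr as no difference. The 5 tested genes of the 7 ranged from 0.45 (Eif4ebp1) to 2.10 (Chac1), with Ddit4 in the middle at 1.39, above the transcription factors. In B16-F1R2 against B16-F1 the median of the 7 was -0.70. The transcription factors without Nupr1 had a median of 1.19. No order of these groups is therefore read from the medians. In total, 16 of the 46 genes lay above B16-F1R2 without overlap and by at least 1 on the log2 scale (6 transcription factors, 4 other stress-induced genes, 4 synthesis enzymes and 2 transporters), beside 1.23% of all tested genes. Against B16-F1, 8 of the 46 did so, beside 8.53% of all tested genes.

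**Figure D3:**
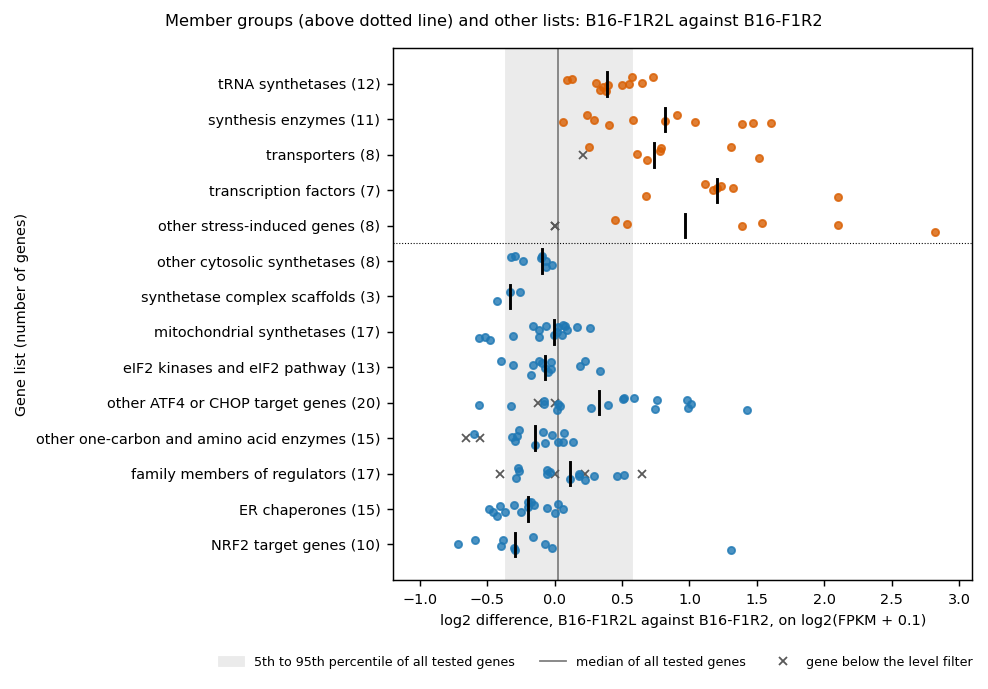
Log2 difference of B16-F1R2L against B16-F1R2 (horizontal axis) for each gene of the 5 groups (orange, above the dotted line) and of 9 other lists (blue), with crosses for genes under the filter and black bars for medians over all genes of a list, those at 0 included. The grey band spans the 5th to 95th percentile of single tested genes, -0.36 to 0.57, and is a scale for single points, not for medians. Most points of the 5 groups lie to the right of 0, which the choice of genes by B16-F1R2L values favours.

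Genes of the same pathways outside the list were compared in the same way. Their counts stand beside 28.2% higher and 27.2% lower among all tested genes in B16-F1R2 against B16-F1, and beside 35.9% above and 29.2% below in B16-F1R2L against B16-F1R2. The 8 other cytosolic synthetases (Dars, Farsa, Farsb, Hars, Kars, Qars, Rars and Vars) held 5 genes that were higher in B16-F1R2 and 1 that was lower, with a median log2 difference of 0.20. Dars, for aspartate, rose from 71.9 and 65.0 FPKM to 117 and 117 (log2 difference 0.78, adjusted p = 0.00015). In B16-F1R2L 0 of these 8 lay above B16-F1R2 and 7 lay below, where 11 of the 12 listed synthetases lay above. The 12 belong to the list chosen by B16-F1R2L values, so nothing is read from this contrast. When libraries were rescaled to a common sum, 1 of the 8 lay above and 3 below, and their median of -0.10 turned to 0.01, while all 12 listed synthetases lay above and their median went from 0.39 to 0.50. Under quantile normalization 0 of the 8 lay above and 3 below. The 3 scaffold genes of the multisynthetase complex (Aimp1, Aimp2 and Eef1e1) were all higher in B16-F1R2 (median 0.30) and all read lower again in B16-F1R2L (median -0.33 against B16-F1R2). Of the 17 mitochondrial synthetases, 5 were higher and 3 lower in B16-F1R2, with 5 above and 7 below in B16-F1R2L against B16-F1R2, or 6 and 3 after the same rescaling and 3 and 8 under quantile normalization.

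A list of 13 genes acting on or around eIF2, upstream of ATF4, held 4 that were higher in B16-F1R2 and 4 that were lower. It holds the eIF2 kinases, Eif2s1, the eIF2B subunits, the phosphatase subunit Ppp1r15b and, as activator and inhibitor of the kinase GCN2, Gcn1l1 and Impact. The higher genes were Eif2s1, Eif2b1, Eif2b3 and Eif2b4, and the lower ones were the kinases Eif2ak1 and Eif2ak3 with Gcn1l1 and Impact. The kinase of the endoplasmic reticulum, Eif2ak3 (PERK), fell in B16-F1R2 from 22.8 and 22.9 FPKM to 13.1 and 14.2 (log2 difference -0.74, adjusted p = 0.00014) and read 13.6 and 13.1 in B16-F1R2L. Eif2ak4 (GCN2), the kinase that senses uncharged tRNA, did not pass the test (log2 difference -0.24, adjusted p = 0.064). Their levels in B16-F1R2L overlapped those of B16-F1R2 for Eif2ak3 and exceeded them for Eif2ak4, at 8.34 and 7.45 against 6.89 and 6.94 FPKM.

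Among 20 other genes known as ATF4 or CHOP targets, 18 were tested, of which 7 were higher and 4 lower in B16-F1R2, and 12 of the 20 lay above and 3 below in B16-F1R2L against B16-F1R2, with a median log2 difference of 0.33. Gdf15, a secreted stress hormone, was at 0.139 and 0.144 FPKM in B16-F1, then 23.5 and 22.2 in B16-F1R2, then 65.7 and 58.0 in B16-F1R2L, so it was 6.57 higher on the log2 scale in B16-F1R2 (adjusted p = 1.4e-07), in the direction opposite to Trib3, Chac1 and Atf3. Jdp2, a relative of Atf3, had their order instead, with 26.5 and 27.4 FPKM in B16-F1, only 16.4 and 14.6 in B16-F1R2 (adjusted p = 0.00028) but 32.4 and 29.2 in B16-F1R2L. Herpud1, of protein degradation at the endoplasmic reticulum, was lower in B16-F1R2, at 65.1 and 62.8 FPKM against 121 and 107 in B16-F1 (adjusted p = 0.00019), and read 95.9 and 87.2 in B16-F1R2L, below B16-F1. Fgf21 was listed at 0 in all 6 libraries.

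A list of 15 genes of the endoplasmic reticulum held 13 chaperones and folding genes, the degradation component Sel1l and the transcription factor Xbp1. In B16-F1R2, 12 of them were lower than in B16-F1 and 0 were higher, with a median log2 difference of -0.55, and in B16-F1R2L 12 lay below B16-F1R2 and 1, Sel1l, lay above, with overlap for Xbp1 and Dnajc3, or 10 below and 3 above after rescaling to a common sum. Hspa5 (BiP), the main chaperone of this compartment, fell in B16-F1R2 from 918 and 869 FPKM to 602 and 595 (log2 difference -0.58, adjusted p = 0.00053), and read 460.2 and 412 in B16-F1R2L. The median of the 15 genes in B16-F1R2L against B16-F1R2 was -0.20, and -0.09 after that rescaling.

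Of the 10 targets of the oxidative stress factor NRF2, a list that also holds Slc7a11, 6 were higher in B16-F1R2 and Slc7a11 alone was lower. Srxn1, which repairs peroxiredoxins, rose from 44.1 and 43.9 FPKM to 74.8 and 71.8 (log2 difference 0.74, adjusted p = 0.00014) and read 47.0 and 42.3 in B16-F1R2L. In B16-F1R2L, Slc7a11 lay above B16-F1R2 and 8 of the 10 lay below, and after rescaling to a common sum Hmox1 also lay above and 6 lay below. Among 15 other enzymes of one-carbon and amino acid metabolism, 13 were tested, 6 were higher in B16-F1R2 and Glul, glutamine synthetase, alone was lower (log2 difference -0.50, adjusted p = 0.00036), with 3 above and 9 below in B16-F1R2L against B16-F1R2, or 5 and 7 after rescaling. Among 17 family members of the listed regulators, 13 were tested, 2 were higher and 5 lower in B16-F1R2 (0 and 6 under quantile normalization), and in B16-F1R2L 6 lay above and 3 below. Sesn3, a relative of Sesn2, fell in B16-F1R2 from 15.9 and 16.1 FPKM to 5.746 and 5.204 (adjusted p = 2.8e-05), and at 7.43 and 8.29 in B16-F1R2L remained under B16-F1, where Sesn2 exceeded it.

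**Figure D4:**
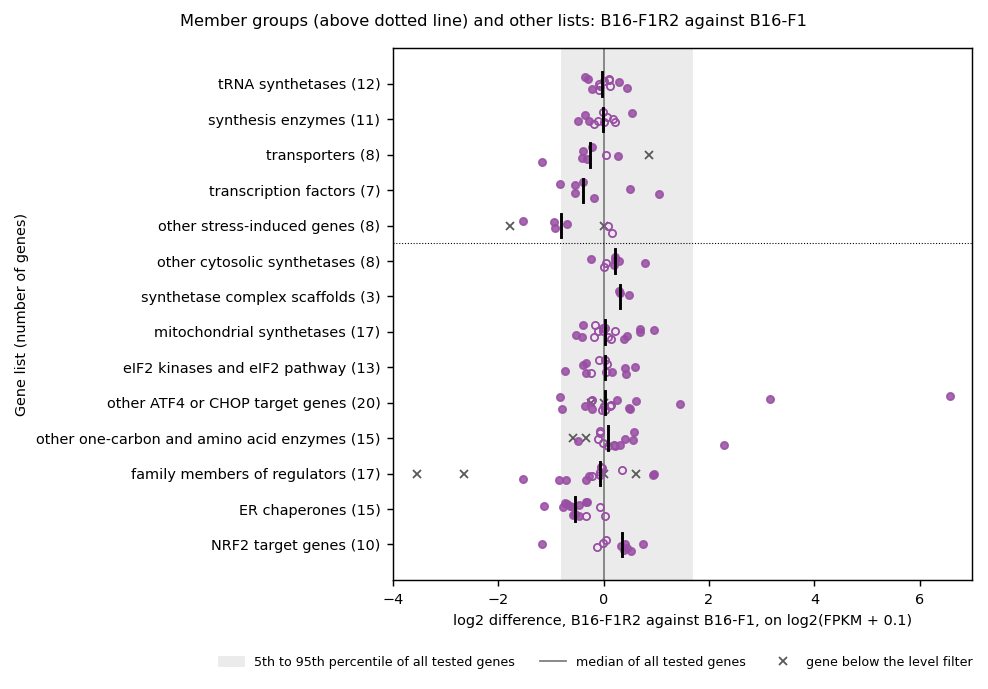
Log2 difference of B16-F1R2 against B16-F1 (horizontal axis) for each gene of the 5 groups (above the dotted line) and of 9 other lists, filled where the adjusted p was under 0.05 and open where not, with crosses for genes under the filter and black bars for medians over all genes of a list. Most of the other stress-induced genes (median -0.82, with Eif4ebp1 and Ppp1r15a right of 0 and Stc2 at 0) and most genes of the endoplasmic reticulum list (median -0.55) lie to the left, most NRF2 targets (median 0.35) to the right with Slc7a11 at the far left, and Gdf15 stands far right at 6.57.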

How the data were processed

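RNA of 3 mouse melanoma lines was compared, with 2 libraries per line grouped by the labels. The authors sequenced polyadenylated RNA with a stranded kit (single-end, 50 bases) and aligned the reads with TopHat 2.0.10, Bowtie 1.0.0 and SAMtools 0.1.1.9 to NCBI37/mm9, allowing 2 mismatches and 20 positions per read. The deposited values are FPKM per gene and library. The submitters' processing notes also name Cuffnorm. The gene annotation is not given in the sources used here. The authors tested differential expression with DESeq2, which needs counts. A count test does not suit FPKM, so log2(FPKM + 0.1) of the genes that reached 1 FPKM in 2 or more libraries was fitted with limma 3.58.1 (R 4.3.3; lmFit, contrasts.fit, eBayes with a trend) over all 6 libraries, with Benjamini-Hochberg adjustment over 11379 genes. An exact permutation test of 2 against 2 libraries cannot go below p = 0.333. The fit was tested on simulated data. The members and the other lists were chosen with earlier results of these data known. All members are given, with the values of every library for Trib3, Nupr1, Atf4, Ddit3, Asns, Chac1 and, in each of 5 role groups, the 3 members with the largest differences in B16-F1R2 and in B16-F1R2L. Gene positions came from the NCBIM37 annotation, promoters from RefSeq (GRCm38.p6), and near-identical copies (at least 95% identity over at least 25% of a transcript) from minimap2 2.31. Depth is an estimate, since the files hold no counts, and intervals that need counts were not computed.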

Additional observations from a re-analysis of the deposited data

How the results depend on the processing

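The fit was repeated with pseudocounts of 1 and 0.01, with no filter and one of 5 FPKM, with other scalings (a common sum of 1000000, median ratios, quantile normalization), without a trend in eBayes, on the 4 libraries compared alone, with the replicate number as a block, with a minimum fold and with each library left out in turn. Of the 26 members called in B16-F1R2 against B16-F1, Trib3 and Nupr1 included, 22 kept their call and 0 reversed under the 16 alternatives other than the minimum fold. Atf4, Nupr1, Slc1a5 and Slc3a2 lost it in 2 or 3 of them, the uncalled Eif4ebp1, Mars, Nars, Psat1 and Psph gained one in some of them, and Pycr1 was called in the opposite direction in 1. With the minimum fold, where calls also had to reach 1 on the log2 scale, the 6 higher members became 1 and the 20 lower members became 2. Under the other alternatives these counts were 4 to 9 and 18 to 21.

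The members lying above B16-F1R2 without overlap by at least 1 in B16-F1R2L numbered 14 to 17 instead of 16. The median of the members in B16-F1R2L against B16-F1R2 was 0.77 after rescaling to a common sum and 0.77 after quantile normalization, where untested members drop out, in place of 0.66, and 0.64 to 0.71 with a library left out. Against B16-F1 it was 0.67, 0.66 and, with a pseudocount of 1, 0.54, in place of 0.57, and 0.52 to 0.60 with a library left out.

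Members near 0 in B16-F1R2 against B16-F1 changed sign, all of them uncalled in the reported fit. Wars was 0.0023 with median ratios, 0.0506 after quantile normalization and -0.0644 to 0.0619 with a library left out. Asns was -0.0033 after rescaling to a common sum and -0.0352 to 0.0399 with a library left out. Shmt2 was 0.0168 and Pycr1 -1.13 (adjusted p = 0.0047) after quantile normalization, and with a library left out they ranged over -0.0326 to 0.0137 and -0.0761 to 0.1847, while Slc7a5 ranged over -0.0063 to 0.0941. The cause of these shifts was not tested.

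With the replicate number as a block (replicate block), 7 members were higher and 21 lower. The deviations of same-numbered libraries had correlations of 0.052, -0.102 and 0.079 between the 3 pairs of lines, so the numbers were not taken as a pairing. With 2 libraries per line, a single library decides much of each spread, and where leaving out 1 library leaves an arm with 1 sample, that sample is assumed to vary like the other groups. The files give no read counts, so counting error at low FPKM, as for Pycr1 and Slc7a3, could not be computed.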
